A study of Nannochloropsis oceanica strain IMET1 with 6 samples.

Results

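Contacts that join the left end of a chromosome to the right end of the same chromosome were examined in the marine microalga Nannochloropsis oceanica IMET1. Hi-C, which crosslinks and ligates DNA lying close together in the nucleus and counts the joined fragments as contacts, was run on 6 libraries, 2 replicates for each of 3 groups. The C0 group was nitrogen-replete (NR) cells in logarithmic growth in modified f/2 medium with nitrate under continuous light. The N1 and N2 groups came from the same strain after washing and transfer to nitrogen-free f/2 medium for 1 and 2 days of nitrogen deprivation (ND), under weaker continuous light than the seed culture, so the effects of ND, washing and light cannot be told apart.

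The members are pairs of 1-kb bins called as significant cis-interactions in the list of 1 group, more than 100 kb apart, with 1 bin within 20 kb of the left end and the other within 20 kb of the right end. The lists give no chromosome lengths, so the right end was taken as the end of the last bin found in any of the 6 lists, and the true end may lie further out. Of 12649 listed bin pairs in all, 406 met this rule, with 334 of 5043 in the C0 lists, 18 of 1046 in those of N1 and 54 of 6560 in those of N2. Since some pairs were listed in more than 1 group, these were 369 distinct bin pairs. Each end window holds 20 bins, which makes 400 possible bin pairs per chromosome and 12000 over the 30 chromosomes. Listed were 2.78% of them at C0, 0.15% at N1 and 0.45% at N2, against 0.00109%, 0.000226% and 0.00142% of all bin pairs tested. Of all cis bin pairs over 100 kb apart, 0.00291% were listed for C0, 0.000141% for N1 and 0.00132% for N2, and of those that did not join both ends 0.00066%, 2.02e-05% and 0.000957%. The members were chosen by measured values, the significance of their contact count within a group, together with distance and position, so these shares are a description.

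The ends of linear chromosomes carry telomeres, the repeats and bound proteins that protect the DNA end, and next to them lie subtelomeres, which in many organisms are poor in active genes and rich in repeats. In budding yeast, telomeres gather in clusters at the nuclear envelope, and the ends of 1 chromosome meet more readily when its arms are of similar length. A chromosome folded with its ends together gives, in a Hi-C map, a spot of contacts in the corner farthest from the diagonal. The lists analysed here cover that corner. Sequence and nuclear gene annotation were not used here, so no telomere repeat, subtelomere or gene was identified.

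The replicates of each group were pooled by the authors before interactions were called, so each group has 1 value, no test between groups was possible, and the intervals below cover counting error only. Depth differed between the groups. The expected count behind each deposited p-value shows this: for average bins in trans it was 0.0426 contacts in C0, 0.0137 in N1 and 0.0293 in N2. For average bins in cis it fell with distance to a floor, which was 0.140 in C0, 0.0501 in N1 and 0.0769 in N2. Because so few contacts were expected, a member was listed from 5 to 9 contacts at C0, from 4 to 6 at N1 and from 4 to 7 at N2, depending on the bias factors of its bins. A bias factor is the correction of Fit-Hi-C for how readily a bin is seen, with 1 for an average bin.

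End-to-end contacts were most numerous in NR cells. The C0 list held 334 of them (exact Poisson 95% interval 299 to 372), the N1 list 18 (10.7 to 28.4) and the N2 list 54 (40.6 to 70.5). Merging neighbouring bin pairs left 196 for C0, 16 for N1 and 42 for N2. In NR cells they made up 77.3% of the 432 cis-interactions over 100 kb (exact binomial 95% interval 73.1% to 81.2%). After 1 day of ND the share was 85.7% of 21 (63.7% to 97.0%), and after 2 days it was 27.6% of 196 (21.4% to 34.4%). Of the remaining cis-interactions over 100 kb, 61 in C0 touched 1 end window and 37 touched none. The N1 list held 2 and 1 of these, and the N2 list 14 and 128. The smaller share at N2 thus came with fewer listed bin pairs at the ends and with more inside chromosomes than at C0. The members spanned 475 to 1663 kb at C0 and 488 to 1655 kb at N2, with medians of 829 and 830.5 kb.

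The contact counts behind these calls were low. At C0 a member had 5 to 24 contacts with a median of 7, at N1 4 to 11 with a median of 5, and at N2 4 to 16 with a median of 6. Summed over members, the C0 list had 2721 contacts where 61.9 were expected, the N1 list 104 where 1.10 were expected, and the N2 list 358 where 6.88 were expected. These ratios were raised by the calling itself, since only bin pairs above the threshold were listed and a shallower group needs a larger ratio. At C0, 122 of the 334 members stood exactly at the lowest count that could list them and a further 74 stood 1 contact above it. At N1 these were 10 and 6 of 18, and at N2 28 and 12 of 54. A count of members therefore moves readily with depth.

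Counts of 10 or more contacts were reached by 81 members at C0, which is 24.3%, by 1 at N1 and by 5 at N2. In the other cis-interactions over 100 kb, 9 of 98 reached this count at C0 and 42 of 142 at N2. At C0 the bin pairs over 100 kb with this many contacts thus lay mostly between chromosome ends, whereas at N2 most lay elsewhere. The highest count among those other cis-interactions was 14 in C0 and 22 in N2, against 24 and 16 among the members. Relative to the expected count, which is lower at long distance, the median member stood higher than the median of the others in C0 (47.5 against 29.1 times) and in N2 (53.0 against 22.1 times). The 18 members of N1 had a median of 99.8 times and the other 3 one of 114. Within a group both sets passed the same cutoff, and a pair with a lower expected count needs a higher ratio to pass it. These ratios are therefore a description of what was listed. By contact count the medians were 7 in both sets at C0, and at N2 6 for the members and 8 for the others.

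The first and the last bin of chromosome 28 had the highest contact count of any member at C0 and at N1. Its bins, from 1 to 1000 and from 584001 to 585000, had 24 contacts in NR cells, 11 after 1 day of ND and 12 after 2 days. Relative to the expected count this was 68.7 times (95% interval 44.0 to 102), 109 times (54.6 to 196) and 78.2 times (40.4 to 137). The 3 intervals overlap. The pair was the runner-up by count in N2, and was 1 of 2 members listed in all 3 groups. The other joined the bin from 1 to 1000 of chromosome 21 to the one from 833001 to 834000. It had 19 contacts in NR cells, 5 after 1 day of ND and 8 after 2 days. Relative to the expected count these were 103 (61.8 to 160), 186 (60.4 to 434) and 103 (44.3 to 202) times, again with overlapping intervals. Relative to the expected count some members stood higher still than the pair of chromosome 28, up to 136 times at C0 (65.3 to 251), for the 10 contacts between 1001 to 2000 and 832001 to 833000 on chromosome 20.

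Chromosome 20 carried the largest group of end-to-end contacts, with 48 members at C0, none at N1 and 12 at N2. At C0 its members joined 9 left bins to 16 right bins and had 5 to 23 contacts, and 17 of them had 10 or more. The highest count lay between 1 to 1000 and 841001 to 842000, with 23 contacts at C0 and 10 at N2, or 87.0 (55.2 to 131) and 67.0 (32.1 to 123) times the expected count. Its outermost bin on the left, at 1 to 1000, had 13 partners on the right end at C0 and 11 at N2, the most of any bin in both groups. Its bias factor was 1.48 at C0 and 1.95 at N2. Bins close by had fewer partners listed after 2 days of ND. The bin at 1001 to 2000 had 12 partners at C0 and 1 at N2, and the bin at 3001 to 4000 had 9 at C0 and none listed at N2. At N2 all but 1 of the 12 members of this chromosome thus ran through its first bin. The contact with the last bin, 842001 to 843000, had 11 contacts at C0 and 16 at N2, the highest count of any member at N2. Relative to the expected count these were 40.4 (20.2 to 72.3) and 86.9 (49.7 to 141) times, with overlapping intervals.

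Other chromosomes with many members at C0 were chromosome 23 with 37, chromosomes 7 and 21 with 25 each, and chromosome 30 with 24. Together with chromosome 20 these 5 held 159 of the 334 members, or 47.6%. Their members were not single spots. On chromosome 23 they joined 13 left bins to 13 right bins, with 5 to 14 contacts, and reached 20 kb into the left end and 19 kb into the right. On chromosome 7 they joined 8 left bins to 10 right bins with 5 to 13 contacts, and on chromosome 30, the shortest at 502 kb, 9 left bins to 7 right bins with 5 to 12 contacts. After 2 days of ND these chromosomes differed in what was still listed, with 5 members on chromosome 23, 8 on chromosome 21, 1 on chromosome 30 and none on chromosome 7. The member with most contacts on chromosome 26, between 6001 to 7000 and 641001 to 642000, and that on chromosome 18, between 4001 to 5000 and 889001 to 890000, had 18 contacts each at C0, and neither was listed at N1 or N2. Chromosomes 1, 4, 14 and 25 had no member in any group.

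The few contacts listed after 1 day of ND lay close to the ends. They came from 9 chromosomes, with 4 members on chromosome 22, 3 on chromosome 28 and 2 each on chromosomes 9, 21, 23 and 29. After the leading pair of chromosome 28, the highest counts were 7 contacts each, found on chromosome 29 between 3001 to 4000 and 580001 to 581000, on chromosome 21 between 2001 to 3000 and 829001 to 830000, and on chromosome 9 between its first bin and the bin at 1289001 to 1290000. None of these 3 was listed at C0, and the pair of chromosome 29 was listed at N2 with 5 contacts. All 3 members of chromosome 28 ran through its last bin, which had 6 partners at C0 and 2 at N2. On chromosome 9 both members ran through the first bin, and 1 of them, with the bin at 1285001 to 1286000, had 6 contacts here and 13 in NR cells. With counts this low, a difference of a few reads decides which pairs were listed.

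After 2 days of ND the members lay on 17 chromosomes, and chromosomes 20, 21, 28 and 23 held 12, 8, 7 and 5 of them. On chromosome 21 the first bin and the bin at 834001 to 835000 had 10 contacts, against 15 in NR cells. That right bin had 4 partners at N2 and 6 at C0. On chromosome 28 the bin at 15001 to 16000, inside the left window, had 4 partners at N2 and 3 at C0, so that contacts away from the outermost bins were also listed. No chromosome had more members at N1 or N2 than at C0.

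**Figure D1:**
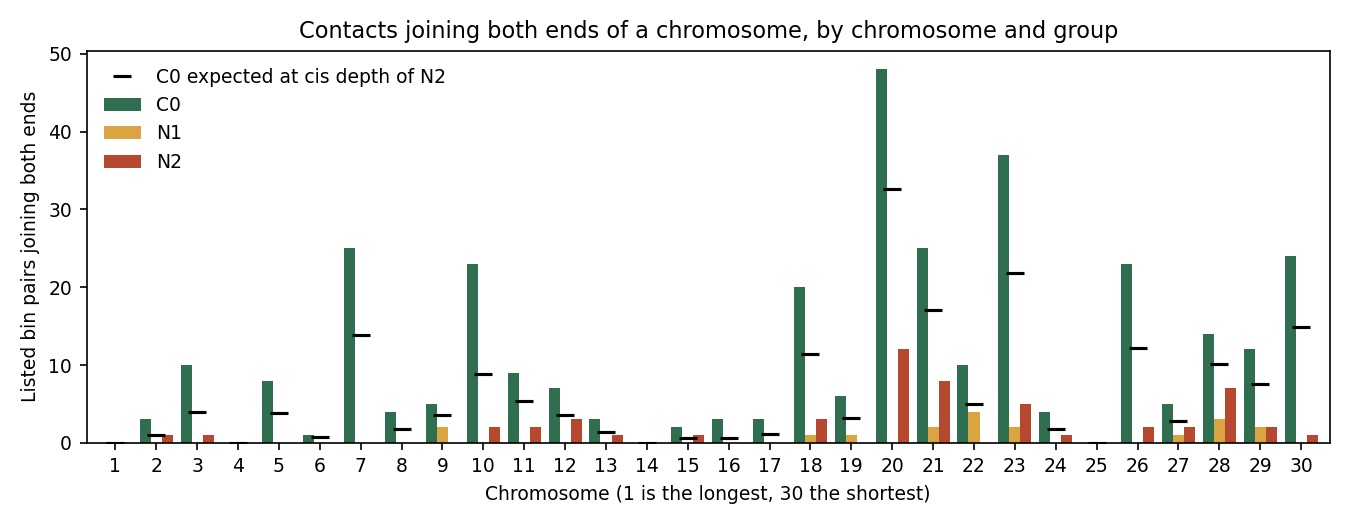
Number of listed bin pairs joining both ends of each chromosome (vertical axis) for the 30 chromosomes, with green bars for C0, yellow for N1 and red for N2, each from pooled replicates and without error bars. Black marks give the C0 number expected at the cis depth of N2. Chromosome 20 stands highest at C0 with 48 and at N2 with 12, and the N2 bar lies below the black mark on 25 of the 26 chromosomes with C0 members.

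Short chromosomes had more members than long ones. At C0, 236 members lay on the 16 chromosomes under 1 Mb and 98 on the 14 longer ones, with medians of 11 and 4.5 per chromosome. At N2 these were 44 and 10, and at N1 16 and 2. Over the 30 chromosomes, Spearman's rho between length and number of members was -0.39 in C0, -0.48 in N1 and -0.44 in N2. The chromosomes share libraries and the expected curve, so this is a description. Each chromosome had the same 400 possible bin pairs, so the number of possible pairs does not differ with length. The distance between the ends does differ. The expected cis count fell with distance down to a floor, found from 844 kb in C0, 1289 kb in N1 and 930 kb in N2. Average bins at the ends of chromosomes shorter than this thus had higher expected counts. How much of the relation to length goes with this was not tested. The number of end bins found in any list with a usable bias factor did vary, from 4 of 40 on chromosome 14 to 27 on chromosomes 10 and 23 at C0. It ran with the number of members (rho 0.87 at C0), but a bin enters a list through its contacts, so the measures are not independent. Chromosomes 1, 4 and 25, which lacked members, had 8, 7 and 7 such bins.

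Contacts were densest in the outermost 5 kb. Where both bins lay within 5 kb of their ends, 84 of 750 possible bin pairs were listed at C0, which is 11.2% (95% interval 9.03% to 13.7%), on 19 chromosomes. With the inner bin 5 to 10 kb from its end the share was 4.98% (4.12% to 5.96%), at 10 to 15 kb 2.21% (1.77% to 2.74%) and at 15 to 20 kb 1.05% (0.790% to 1.36%). Just outside the end window, at 20 to 25 kb, it was 0.252% (0.147% to 0.403%), with 17 bin pairs of at most 10 contacts, against 55 bin pairs of at most 16 contacts just inside. It was 0.267% at 25 to 30 kb, 0.0810% at 30 to 40 kb and 0.0148% at 40 to 50 kb. At N2 it was 2.27% (1.33% to 3.60%) within 5 kb, 0.711% (0.407% to 1.15%) at 5 to 10 kb, 0.187% (0.0751% to 0.384%) at 10 to 15 kb and 0.267% (0.146% to 0.447%) at 15 to 20 kb. At N1, 13 of the 18 members lay within 5 kb of both ends, or 1.73% of possible pairs (0.926% to 2.95%). Neighbouring bin pairs are not independent, so these intervals are too narrow.

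**Figure D2:**
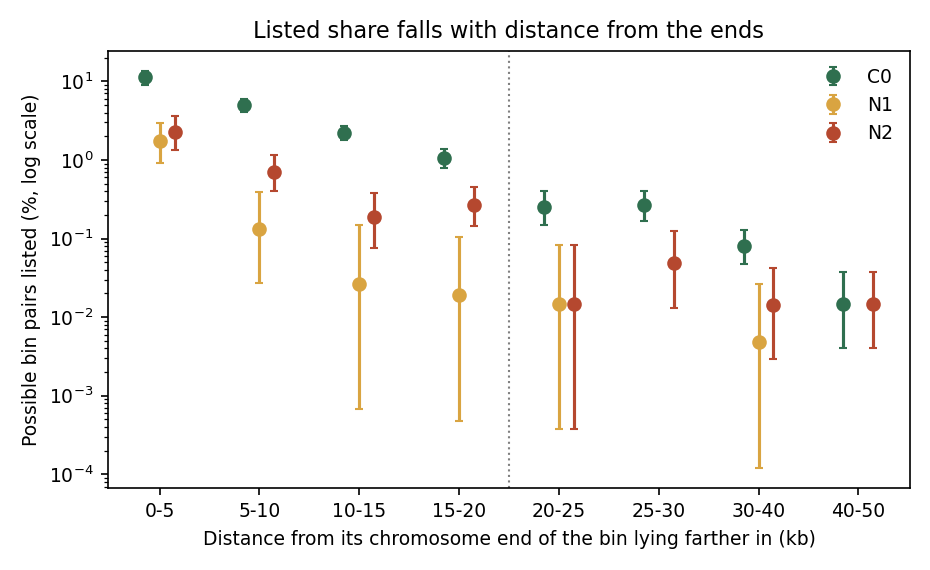
Share of possible bin pairs that were listed (vertical axis, percent, log scale) by the distance from its chromosome end of whichever bin lay farther in (horizontal axis, kb), for C0 (green), N1 (yellow) and N2 (red), with exact binomial 95% intervals. The dotted line marks the 20-kb edge of the end windows, and classes with no listed pair are not drawn. At C0 the share falls from 11.2% within 5 kb to 0.0148% at 40 to 50 kb.

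Within the end windows the members spread over many combinations of bins. The C0 members involved 152 left bins and 148 right bins, the N1 members 16 and 14, and the N2 members 37 and 42. Of the 300 bins at C0, 145 had 1 partner only. The combination found on most chromosomes at C0 was that of the second bin from the left end with the second from the right end, listed on 7 chromosomes, whereas the first bin with the last was listed on 5. At N1 and at N2 the first bin with the last led, on 3 chromosomes each. The distances of the bins from their own ends were weakly related within a pair, with Spearman's rho of 0.23 over 334 members at C0 and 0.32 over 54 at N2, given as a description since members share bins. The median bias factor of the members' bins was 1.07 in C0, 1.00 in N1 and 1.13 in N2. In the other cis-interactions over 100 kb the medians were 1.18, 0.903 and 1.32.

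**Figure D3:**
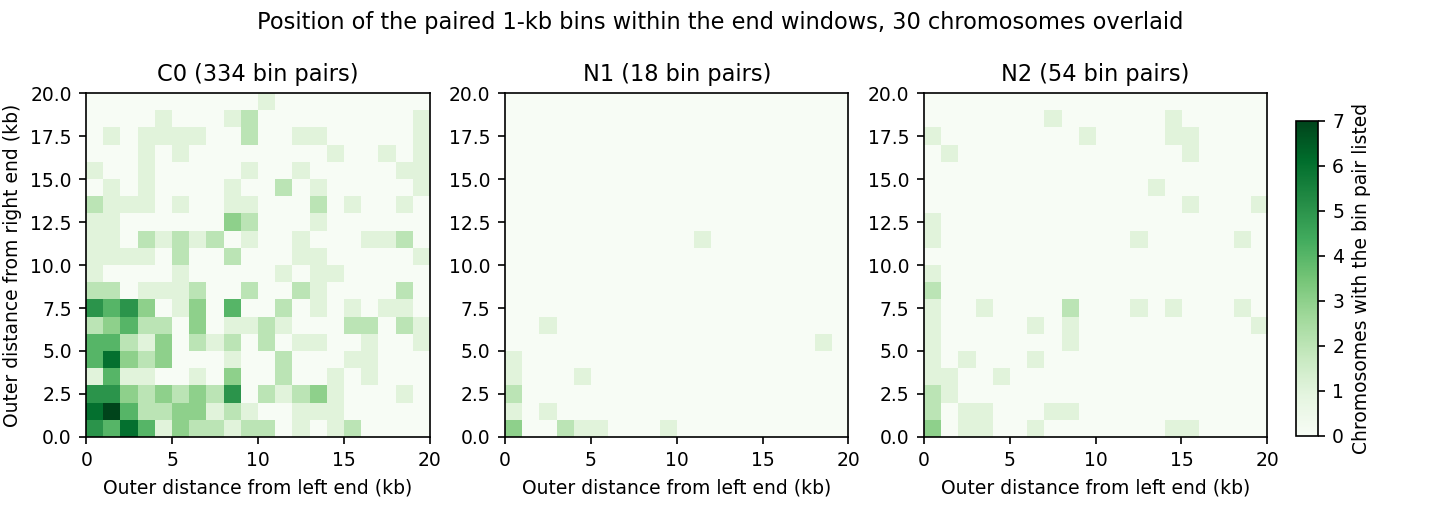
Position of every member within the end windows, by distance from the left end (horizontal axis, kb) and from the right end (vertical axis, kb), 1 panel per group. Colour gives the number of chromosomes with that bin pair listed, up to 7. The 334 members at C0 fill the corner nearest both ends and spread along both axes, and those at N1 and N2 are sparse.

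The N2 list was shorter than the C0 list scaled to its depth. If each C0 member kept its contacts in proportion to the cis read pairs, 0.721 of those at C0 would remain at N2, and 191 members (SD 7.26 from counting) would still reach the threshold of the N2 list, on 23.9 chromosomes. The N2 list held 54 on 17 chromosomes, 0.283 times that number. With the depth ratio taken from the expected trans counts, 0.686, the number was 178 (SD 7.37). At the cis depth of N1 (ratio 0.444) 64.4 members (SD 6.05) on 16.7 chromosomes would remain, against 18 on 9 chromosomes in the N1 list. With the ratio from expected trans counts, 0.321, 32.2 (SD 4.79) would remain, so the N1 list was shorter under both measures but by a different amount, 0.279 and 0.559 times the expected number. The SDs cover the thinning only, and the spread between cultures is not in them. Counts that reached the C0 list partly by chance are thinned with the rest, and to that extent the expectations are too high. Pairs not listed at C0 are left out, though some could pass the cutoff of the other list. This omission makes the expectations too low. Neither amount was measured, so the net direction is unknown.

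By chromosome, N2 lay below the value expected from C0 at its depth on 25 of the 26 chromosomes with C0 members. The exception was chromosome 15, with 1 member where 0.571 was expected. On 3 of the 26 the expected value was under 1, so that a count of 0 had to lie below it, and N2 was below on all 23 others. Chromosome 20 had 12 where 32.6 were expected, chromosome 23 had 5 where 21.9 were expected and chromosome 7 had none where 13.9 were expected. Chromosome 30 had 1 where 14.9 were expected. The gap was smaller on chromosome 28, with 7 against 10.1, and on chromosome 12, with 3 against 3.59. On 9 chromosomes that carried 65 members at C0 none was listed at N2, where 33.7 were expected. Without chromosome 20 the totals were 42 at N2 against 158 expected. At N1 the expected number was under 1 on 12 of the 26 chromosomes, too few for a comparison on these. On the 14 others N1 lay below the expected number on 12. The exceptions were chromosome 9, with 2 members where 1.27 were expected, and chromosome 22, the lead of the N1 list. Chromosome 22 had 4 members at N1 where 1.21 were expected, and none at N2 where 5.01 were expected.

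C0 and N2 shared 30 members, which is 8.98% of the C0 list (95% interval 6.14% to 12.6%) and 55.6% of the N2 list (41.4% to 69.1%). Over all cis-interactions, most of them at short distance, the 1588 shared ones were 35.6% of the C0 list and 31.5% of the N2 list. Of the other cis-interactions over 100 kb, 3 were shared, which is 3.06% of 98 and 2.11% of 142. These shares also depend on the length of each list and on depth, so they are a description. Every chromosome with members at N1 or N2 also had members at C0. Of the 30 shared pairs, 10 were on chromosome 20, 9 of them through its first bin, 6 were on chromosome 21 and 4 on chromosome 28. Their contacts summed to 327 at C0 and 214 at N2, a ratio of 0.654 (0.548 to 0.779), and this interval holds the ratio of cis depth, 0.721. The count was higher at C0 in 24 of them, equal in 1 and higher at N2 in 5. Being listed in both groups selects for pairs that kept their contacts, so this ratio does not describe the C0 members that N2 did not list. C0 and N1 shared 6 members, 33.3% of the N1 list (39.3% over all cis-interactions), with 78 and 38 contacts, a ratio of 0.487 (0.321 to 0.726) beside a depth ratio of 0.444. N1 and N2 shared 3.

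**Figure D4:**
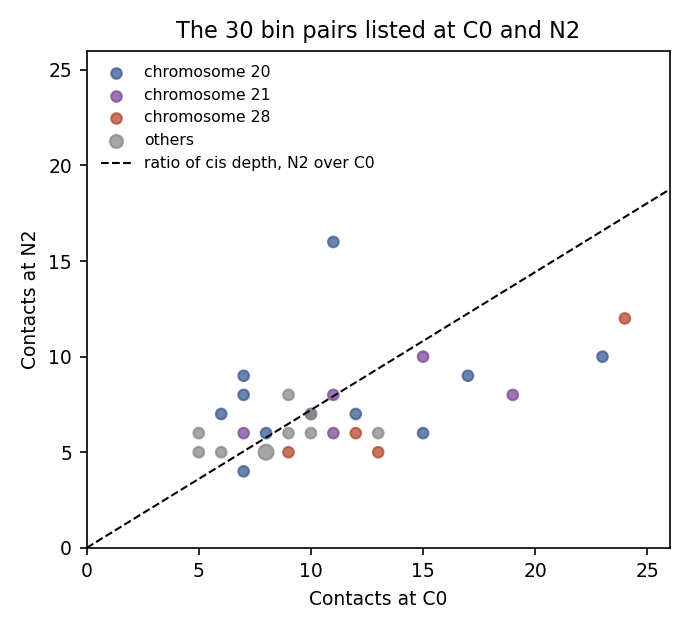
Contacts at N2 (vertical axis) against contacts at C0 (horizontal axis) for the 30 members listed in both groups, coloured by chromosome, with larger points for coinciding pairs. The dashed line is the ratio of cis depth, 0.721. Points scatter on both sides of the line, and the pair with 16 contacts at N2 and 11 at C0, on chromosome 20, lies highest above it.

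Pairs that dropped out of the list can be bounded where both bins had a bias factor at N2. This was so for 145 of the 334 C0 members. In 10 others a bin had no usable factor at N2, which keeps it out of the cis list, and in 179 a bin was in no N2 list, so that its factor is unknown. Of the 145, 30 were listed at N2, where 106 would be expected to be listed had contacts followed the ratio of cis read pairs. The pair on chromosome 18 between 4001 to 5000 and 889001 to 890000 had 18 contacts at C0, which scales to 13.0, and at most 4 at N2. On chromosome 20, the pair of 3001 to 4000 and 841001 to 842000 had 17 at C0, which scales to 12.3, and at most 5 at N2. Choosing pairs by their C0 calls favours those with chance highs at C0. In the reverse direction, 47 of the 54 N2 members had factors at C0, 38.0 would be expected to be listed there and 30 were. The N2 member with most contacts among those not listed at C0, between 1 to 1000 and 825001 to 826000 on chromosome 20, had 11 contacts at N2, which scales to 15.3, and at most 6 at C0.

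Chromosome ends also met the ends of other chromosomes, and these contacts were listed in a smaller share of possible bin pairs. Ends of different chromosomes were joined by 255 of 587 trans-interactions in the C0 list, by 4 of 98 in the N1 list and by 104 of 1518 in the N2 list. Out of 696000 possible bin pairs this is 0.0366%, 0.000575% and 0.0149%. A bin without a usable bias factor cannot enter the cis lists, and the trans pairs with usable factors were 220, 3 and 39, so the N2 share in particular rests mostly on pairs that have no counterpart in cis. The corresponding shares for both ends of 1 chromosome were 2.78%, 0.15% and 0.45%. The contact thresholds differ between the cis and trans lists, so the comparison was repeated among listed pairs at fixed contact counts with usable bias factors. This does not make the thresholds equal. A member needed 5 to 9 contacts at C0 and 4 to 7 at N2, and unlisted pairs with such counts are not seen. At C0, 5 or more contacts were held by 334 listed end-to-end pairs and 131 listed trans pairs. For 6 or more these were 298 and 37, for 7 or more 228 and 9, and for 8 or more 148 and 1. As shares of possible pairs, the listed end-to-end pairs were ahead by 148 times at 5 contacts, 467 times at 6, 1469 times at 7 and 8584 times at 8, the last resting on 1 trans pair. At N2, 6 or more contacts were held by 36 listed end-to-end and 5 listed trans pairs, and 8 or more by 12 and none. Expected counts on the cis floor were 3.28 times those of trans pairs at C0 and 2.63 times at N2. The floor was found from 844 kb at C0 and 930 kb at N2, beyond the members' median distances of 829 and 830.5 kb. For average bins at shorter distance, expected cis counts exceeded those of trans pairs by more than this. How much of the gap in shares goes with this difference was not tested. These ratios therefore do not show that the ends of 1 chromosome met more often than the expected counts would give. Of the 255 trans pairs at C0, 134 joined ends of the same side and 121 a left end to a right end, and at N2 there were 52 of each.

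**Figure D5:**
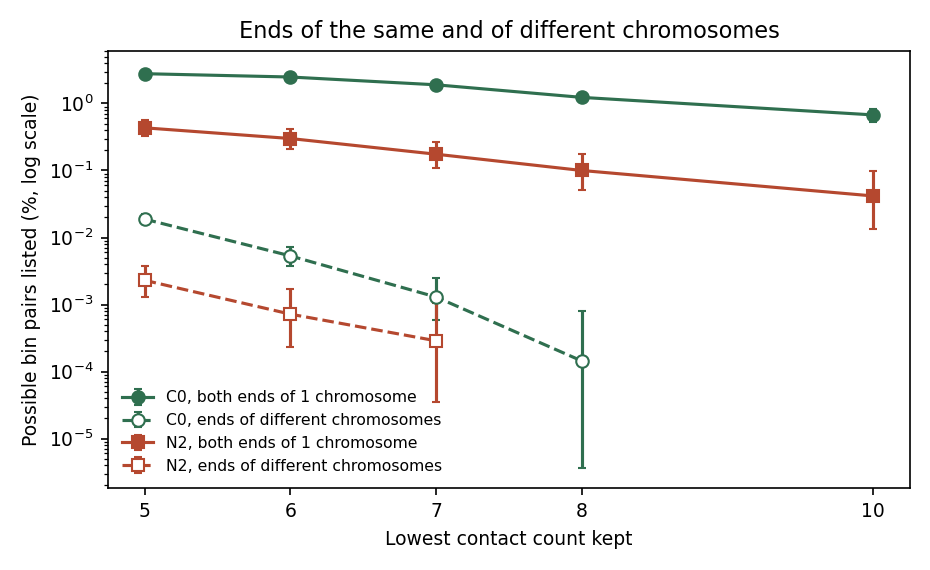
Share of possible bin pairs listed (vertical axis, percent, log scale) at or above a given contact count (horizontal axis) for both ends of 1 chromosome (filled, solid lines) and ends of different chromosomes with usable bias factors (open, dashed lines), at C0 (green) and N2 (red), with exact binomial 95% intervals. Shares of 0 are not drawn. At 8 contacts the C0 shares are 1.23% and 0.000144%, the latter from 1 pair, and the gap widens with the count.

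Many end bins took part in both kinds of contact. Of the 300 bins with an end-to-end partner at C0, 143 (47.7%) were also joined to the end of another chromosome. At N2 these were 22 of 79 (27.8%). Among listed end bins with a usable bias factor but no end-to-end partner, the share was 59 of 161 (36.6%) at C0 and 31 of 182 (17.0%) at N2. All these bins entered the lists through their contacts, so the shares are a description. Across the 30 chromosomes the number of members ran with the number of trans-interactions between ends, with Spearman's rho of 0.69 at C0 and 0.47 at N2, as a description over chromosomes that share libraries and depth. Chromosome 23 departed from this, with 37 members but 12 trans-interactions between ends at C0, while chromosome 10 had 23 and 32. Chromosome 6 lay at the other side, with 1 member and 18 trans-interactions between its ends and those of other chromosomes.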

How the data were processed

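The 6 Hi-C libraries were grouped by their titles. By the paper's methods, Trimmomatic trimmed the reads, the ICE package mapped them to the V2 genome of IMET1, replicates were pooled, and interactions from Fit-Hi-C were kept at a contact count above 2 and p- and q-values below 0.01. The methods speak of 10-kb bins, whereas the deposited lists hold 1-kb bins. HiC-Pro and edgeR are named in the submitters' processing notes. The contact counts deposited by the authors are raw and pooled over replicates. The p-value and q-value of each bin pair were deposited by the authors, and the deposited score of each bin is its bias factor. The 4 deposited lists of shared interactions were not used, and neither were the p-values to compare groups.

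The expected count of a bin pair was recovered as the Poisson mean at which its contact count has the deposited p-value. Depth was taken from the cis valid read pairs of the paper's supplement, 15856448 at C0, 7035658 at N1 and 11434869 at N2, or from the expected trans counts. The number expected at a lower depth is the sum of binomial probabilities that each listed pair keeps enough contacts to pass the p-value cutoff of the other list, with no random draws. Contact counts and expected counts were scaled by the same ratio. For unlisted pairs, the bias factors came from the lists of the other group and the expected count from interpolation over distance. Possible bin pairs were counted from the bins in the end windows. Coordinates are those of the authors' genome, with the first base as 1. Calculations used Python 3.11.15, NumPy 2.4.6, pandas 2.3.3 and SciPy 1.17.1 and were tested on simulated data. Named are, for each group, the 5 members with most contacts, the chromosomes and bins with the most members, chromosomes without any and pairs in all groups, though not all are described. The members and this rule were chosen with earlier results of these data known. Alternatives were narrower and wider ends, stricter q-values and counts, merging, leaving out chromosome 20, right ends from 1 group, wider matching and lower depth. The comparison of end-to-end with trans pairs by contact count, and depth of N1 from expected trans counts, were added after seeing the data.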

Additional observations from a re-analysis of the deposited data

How the results depend on the processing

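No paired analysis was possible because each list pools its replicates. With ends 10 kb wide there were 196 end-to-end pairs at C0 and 33 at N2, 45.4% and 16.8% of the cis-interactions over 100 kb. With ends 50 kb wide the share at C0 was 91.2%. A q-value below 0.001 left 9 pairs at N1, 34 at N2 and 19 shared by C0 and N2, with a share of 86.0% at C0. Merging neighbouring pairs left 196 at C0, a share of 68.1%. The depth of N2 left 191 C0 pairs by cis read pairs and 178 by expected trans counts. The depth of N1 left 64.4 and 32.2 C0 pairs, with 16.7 chromosomes by cis read pairs, and 14.5 and 7.38 N2 pairs, with 7.23 chromosomes. Matching within 5 bins gave 50 N2 pairs near a C0 pair, a match so wide on chromosomes with many C0 pairs that it says little. The share of end-to-end over that of trans end pairs at C0 was 76.0 over the lists and 148, 467, 1469 and 8584 at 5, 6, 7 and 8 contacts. The other 61 values stayed within 1.5 times the main count or within the interval of the main share. C0 had more pairs than N2, and N2 more than N1, under each alternative that kept the lists at their own depth. At the depth of N1, N2 lay below the 18 of N1. Pairs near the listing threshold, which were most of the members, are limited by depth.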
